A study of Mus musculus with 13 samples.

Results

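The Src, Syk and Tec families are tyrosine kinases that start signals at antigen receptors, and Csk is the kinase that holds the Src family in check. They were followed here in mouse thymocytes as 9 genes chosen by name: the Src family genes Blk, Lck, Fyn and Lyn, the Syk family genes Syk and Zap70, the Tec family genes Txk and Tec, and Csk. Of these, 7 had a probe set that names 1 gene, out of 19752 genes measured in this way, and each of the 7 had 1 such probe set. Lck and Lyn are not analysed here. The rule that picks them uses names, not levels, but the names were chosen with earlier results of these data known.

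RNA was measured on 13 Affymetrix gene arrays, 1 per sample, from thymocytes that had been sorted from mice 2 weeks old. V2 cells are immature γδ thymocytes, sorted as negative for CD4 and CD8, positive for the δ chain of the T cell receptor and for Vγ2, and high in HSA. DP cells are αβ lineage thymocytes that carry both CD4 and CD8. For each population there were wild-type samples (WT) and samples of mice with a conditional knockout (cKO) of Sox4, a transcription factor gene. The labels give the sex of every sample as mixed, but Xist, the RNA of the inactive X chromosome, read 5.36 to 6.08 on 7 of the 11 arrays compared below and 11.8 to 12.4 on the other 4, and the low level goes against a mix. The high arrays were V2 WT replicate 5 and both V2 cKO arrays of the V2imm titles and DP WT replicate 5, while both DP cKO arrays compared were low. V2 titles are written in 2 ways, called V2imm and immV2 here, and the V2imm titles write the knockout without its gene. The sources used here do not give the promoter that drives Cre, nor whether each replicate is another animal. The p-values therefore reflect the spread of these samples alone, and part of that spread may be technical.

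In a T cell, Src family kinases phosphorylate the signalling motifs of the CD3 chains once the receptor is engaged. Zap70 and Syk dock on those motifs through paired SH2 domains and phosphorylate the adaptors Lat and Lcp2. Tec family kinases join that adaptor complex and activate phospholipase Cγ, while Csk phosphorylates the inhibitory tyrosine in the tail of Src family kinases. In γδ thymocytes the strength of this signal is known to influence which effector programme a cell takes, and Blk is known to be needed for normal numbers of γδ cells that make interleukin 17 (IL-17).

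The labels give 4 arrays for V2 WT, 4 for V2 cKO, 2 for DP WT and 3 for DP cKO, but 2 arrays carried the profile of the other population. The array labelled DP cKO replicate 5 was nearer the V2 mean for 8 of 8 V2 markers and 8 of 8 DP markers, and the array labelled V2 WT replicate 5 (immV2) was nearer the DP mean for 8 of 8 and 8 of 8. These 2 arrays were set apart with earlier results of these data known, and no array was moved to another group. Differences are given over the 11 other arrays (3 and 4 of V2, 2 and 2 of DP, WT before cKO) and also over the 13 as labelled. Array medians ran from 122.2 to 137.2 in linear intensity. Precision is limited by how few arrays there were. Sox4 did not differ detectably between genotypes, with cKO minus WT at -0.51 (SE 0.38) in V2 and -0.25 (SE 0.49) in DP on the log2 scale. Its 1 probe set has an unknown place relative to the deleted part, so the label check it offers is uncertain.

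Before the levels, the 250 bases upstream of 2 starts are shown, those of Fyn and Tec, since these were the genes beside Blk that passed the test between the populations. The windows are from RefSeq on GRCm38.p6, which had windows for 6 of the 7 measured genes (11 windows), and Blk has no entry. Each is printed 5′ to 3′ on the strand of the gene, Fyn at chr10:39369549-39369798 on the plus strand and Tec at chr5:72868449-72868698 on the minus strand, with motif matches in capitals.
Fyn: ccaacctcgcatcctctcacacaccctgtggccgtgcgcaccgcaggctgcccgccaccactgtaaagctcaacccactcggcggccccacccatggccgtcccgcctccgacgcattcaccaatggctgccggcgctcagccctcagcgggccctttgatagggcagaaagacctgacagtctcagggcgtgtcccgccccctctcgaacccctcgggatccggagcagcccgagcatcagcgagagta
Tec: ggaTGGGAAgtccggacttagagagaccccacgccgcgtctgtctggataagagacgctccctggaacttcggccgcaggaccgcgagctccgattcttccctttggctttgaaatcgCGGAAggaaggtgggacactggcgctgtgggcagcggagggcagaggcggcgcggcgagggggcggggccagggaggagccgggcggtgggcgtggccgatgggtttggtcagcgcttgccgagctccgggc

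The search used 6 motifs on both strands: AACAAAG and ACAAT, which are core letters bound by HMG box factors such as Sox4, CANNTG for E proteins, CGGAA for ETS factors, TGTGGT for Runx factors and TGGGAA for Ikaros factors. The Fyn window held none of them. The Tec window held 1 ETS match and 1 Ikaros match, at -132 and -247 relative to the start. Over the 11 windows of the kinase genes, ACAAT matched in 3, 2 of Zap70 and 1 of Syk, against 27.7% of all 32851 windows of that length. AACAAAG matched in 0 of 11 against 5.03%, CANNTG in 7 against 66.2%, CGGAA in 2 against 25.2%, TGTGGT in 2 against 14.05% and TGGGAA in 2 against 21.6%. A match describes letters in the window and is no evidence of binding.

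Among the 7 kinases Blk separated the populations by far the most. The V2 WT arrays read 10.94 and 11.26 (V2imm) and 11.47 (immV2) in log2 intensity. In V2 cKO it was 8.74 and 10.31 (V2imm) and 9.99 and 10.94 (immV2). The DP WT arrays read 6.48 and 6.49, and the DP cKO arrays 6.79 and 6.86. Every V2 array was thus at least 1.87 log2 units above every DP array, and the V2 cKO arrays were the most scattered (mean 9.99 ± 0.93, SD, n = 4, against 11.2 ± 0.27, n = 3, in V2 WT). A gap of any size with V2 above DP was seen for 14.4% of all genes in WT and 9.80% in cKO. V2 values of the other kinases follow in the same order of arrays, V2imm before immV2. The 2 arrays set apart followed their markers in Blk, at 11.29 in the array labelled DP cKO replicate 5 and 6.82 in the array labelled V2 WT replicate 5 (immV2). In the same order Fyn read 10.11 and 9.31, Zap70 9.95 and 9.78 and Syk 8.50 and 8.56. Txk read 9.78 and 10.35, Tec 8.08 and 7.51 and Csk 10.36 and 10.17. For Tec and Csk the array with the DP profile thus lay above the lowest V2 WT array compared.

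**Figure D1:**
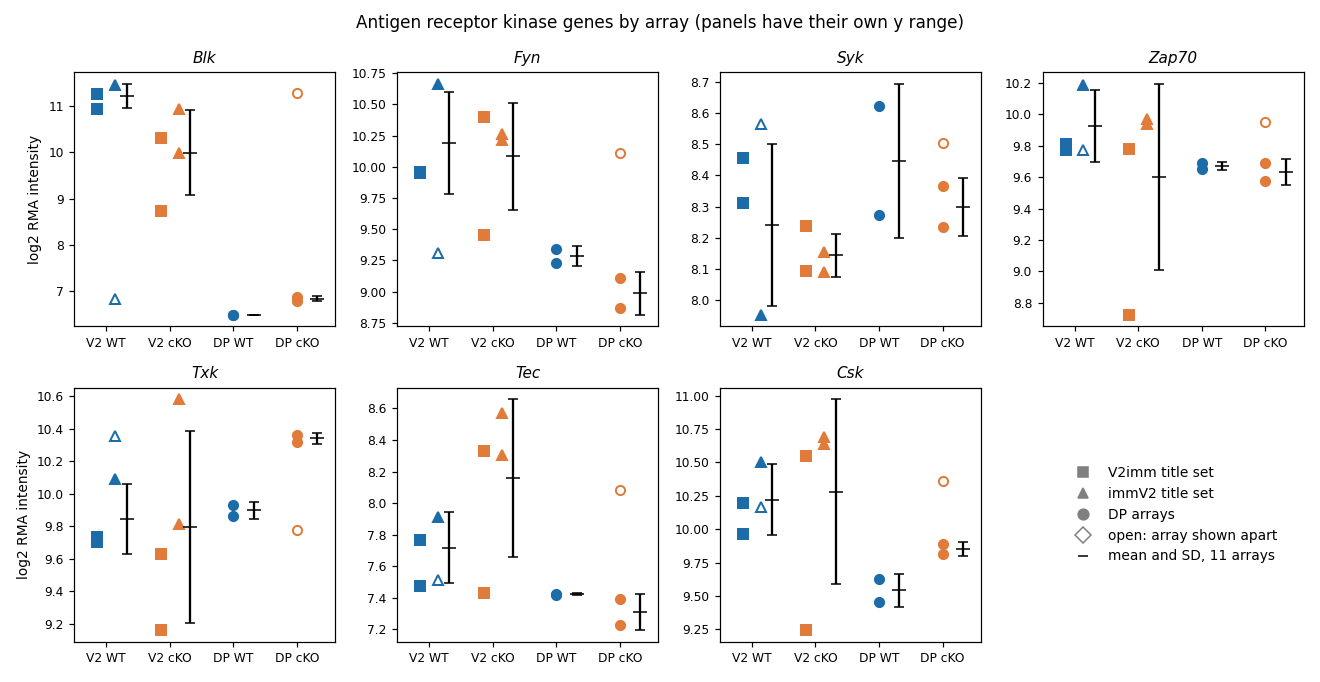
Log2 intensity of the 7 kinase genes on each array, by group, with the group mean and SD of the 11 arrays beside them (each panel has its own y range) and open symbols for the 2 arrays set apart. Blk reads between 8.74 and 11.47 on the V2 arrays and between 6.48 and 6.86 on the DP arrays, and for Blk the open symbols lie at the level of the other population.

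Blk, a Src family kinase best known from B cells, was higher in V2 WT than in DP WT by 4.86 on the log2 scale (SE 0.39, 95% interval 4.02 to 5.70, limma adjusted p = 5.51e-06), which is 29.0-fold in linear intensity. Between the cKO groups it was higher by 3.17 (SE 0.37, adjusted p = 0.000135, 8.99-fold). Among 18 genes of unrelated tissues the median was 6.24 and the upper quartile 6.86. The 4 DP values of Blk lie between that median and about that quartile, so Blk is not shown to be above background in DP and the fold has no exact size. In bulk samples fewer cells of a type and less RNA per cell cannot be told apart. With the 13 arrays as labelled the differences were 3.64 (SE 1.35, adjusted p = 0.50) and 1.68 (SE 1.19, adjusted p = 0.774), and the group spreads then hold the arrays with the other profile. Leaving out any 1 of the 11 arrays kept both calls.

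The genome-wide background sets the scale of such calls. In V2 WT against DP WT 4.87% of all genes passed, and 2 of the 7 kinases did, Blk and Fyn. In V2 cKO against DP cKO 5.45% passed, and 3 of 7 did, Blk, Fyn and Tec, each higher in V2. The median difference of the 7 was 0.37 in WT and 0.43 in cKO, against -0.02 and -0.01 over all genes. With 13 arrays 0.0557% and 0.0354% of all genes passed, and 0 of 7 kinases in either comparison. The comparisons are between different groups, but 1 fit gave both, with a shared estimate of the spread and a shared term for the V2 title set. Through that term the V2 cKO arrays also enter the WT difference.

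Fyn, the other measured Src family kinase of T cells, was also higher in V2. Its log2 intensity was 9.95 and 9.96 (V2imm) and 10.67 (immV2) in V2 WT, and 9.46 and 10.40 (V2imm) and 10.22 and 10.26 (immV2) in V2 cKO. It was 9.23 and 9.34 in DP WT and 8.87 and 9.11 in DP cKO. No V2 array overlapped the DP arrays. Every V2 array lay above every DP array for 14.4% of all genes in WT and 9.80% in cKO. The difference was 0.99 (SE 0.25, adjusted p = 0.0426, 1.98-fold) between WT groups and 1.10 (SE 0.24, adjusted p = 0.0149, 2.14-fold) between cKO groups. The WT call is marginal: it held in 2 of 11 leave-one-out fits, those without V2 cKO replicate 4 or 5 (V2imm), and adjusted p ran up to 0.285 in the other 9. The cKO call was lost without DP cKO replicate 3 (adjusted p = 0.221) or replicate 4 (0.0791), and both calls were lost with a covariate for Xist (adjusted p = 0.0730 and 0.0836). With the V2imm arrays alone the WT difference was 0.67 (adjusted p = 0.415) and the cKO difference 0.94 (adjusted p = 0.156), and with the immV2 arrays alone 1.38 (adjusted p = 0.0109) and 1.25 (adjusted p = 0.00412). With the 13 arrays as labelled it was 0.69 (SE 0.40) and 0.72 (SE 0.35), neither called.

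No difference between the populations was called for the Syk family. Zap70, the kinase that docks on the phosphorylated CD3 chains in mature T cells, was 9.81, 9.78 and 10.19 in V2 WT and 8.72, 9.78, 9.94 and 9.97 in V2 cKO. In DP it stayed within 9.57 and 9.69, an SD of 0.055 over 4 arrays that is larger than that of 8.99% of genes. V2 WT minus DP WT was 0.35 (95% interval -0.21 to 0.92) and V2 cKO minus DP cKO was -0.03 (-0.56 to 0.50). Syk, which binds the same motifs and is prominent in B and immature T cells, was 8.46, 8.31 and 7.95 in V2 WT and 8.24, 8.10, 8.09 and 8.15 in V2 cKO. It was 8.27 and 8.62 in DP WT and 8.23 and 8.37 in DP cKO. Its difference between populations was -0.24 (-0.63 to 0.15) in WT and -0.16 (-0.52 to 0.21) in cKO, and drops of more than 0.63 lie outside both intervals.

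The Tec family gave different values for its members. Tec, an activator of phospholipase Cγ, was 7.77, 7.47 and 7.91 in V2 WT and 8.33, 7.43, 8.57 and 8.30 in V2 cKO, with 7.43 and 7.42 in DP WT and 7.39 and 7.23 in DP cKO. Among the 11 arrays compared, all of V2 lay above all of DP within each genotype, which 14.4% of all genes showed in WT and 9.80% in cKO. V2 cKO replicate 5 (V2imm), at 7.43, was about level with DP WT. Between the cKO groups Tec was higher in V2 by 0.85 (SE 0.22, adjusted p = 0.0405, 1.80-fold), and between WT groups the difference was 0.37 (95% interval -0.14 to 0.87). The cKO call was kept in 2 of 11 leave-one-out fits, those without V2 cKO replicate 4 or 5 (V2imm), and adjusted p rose to as much as 0.324 in the other 9. It was also lost with the Xist covariate (adjusted p = 0.0805). Its difference was 0.57 (adjusted p = 0.412) in the V2imm set and 1.13 (adjusted p = 0.00403) in the immV2 set, and 0.59 (SE 0.25, adjusted p = 0.556) with 13 arrays. The difference between the 2 population contrasts was not called (0.48, SE 0.32), so Tec is not shown to separate the populations in only 1 genotype.

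Txk, a Tec family kinase of T cells also called Rlk, was 9.70, 9.74 and 10.09 in V2 WT and 9.16, 9.63, 9.81 and 10.58 in V2 cKO, against 9.86 and 9.93 in DP WT and 10.36 and 10.32 in DP cKO. V2 and DP arrays overlapped. The fitted population difference, which takes the title set into account, was 0.05 (-0.48 to 0.58) in WT, where the plain group means (9.84 and 9.90) have V2 the lower, and -0.54 (SE 0.23, adjusted p = 0.289) in cKO.

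Csk, the brake on the Src family, read 9.97, 10.19 and 10.50 in V2 WT and 9.24, 10.55, 10.64 and 10.69 in V2 cKO, with 9.45 and 9.63 in DP WT and 9.82 and 9.89 in DP cKO. Among the 11 arrays compared, all of V2 WT were above all of DP WT, which 14.4% of all genes showed. Among V2 cKO arrays only replicate 4 (V2imm), at 9.24, lay below the DP arrays. The difference was 0.78 (SE 0.30, adjusted p = 0.221) in WT and 0.43 (SE 0.28, adjusted p = 0.617) in cKO, so neither passed. It passed without V2 cKO replicate 4 (V2imm), at 0.72 (adjusted p = 0.0125) and 0.73 (adjusted p = 0.0116), and in WT without V2 cKO replicate 5 (V2imm) at 0.83 (adjusted p = 0.0411). With the immV2 arrays alone both passed, at 0.96 (adjusted p = 0.0375) and 0.81 (adjusted p = 0.0246), and with the V2imm arrays alone they were 0.54 and 0.04. Single arrays and the title set thus decided this call. With the 13 arrays as labelled the WT and cKO differences were 0.67 and 0.26 for Csk, 0.22 and -0.14 for Zap70, -0.12 and -0.22 for Syk and 0.07 and -0.36 for Txk, and 0 of these 8 passed.

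**Figure D2:**
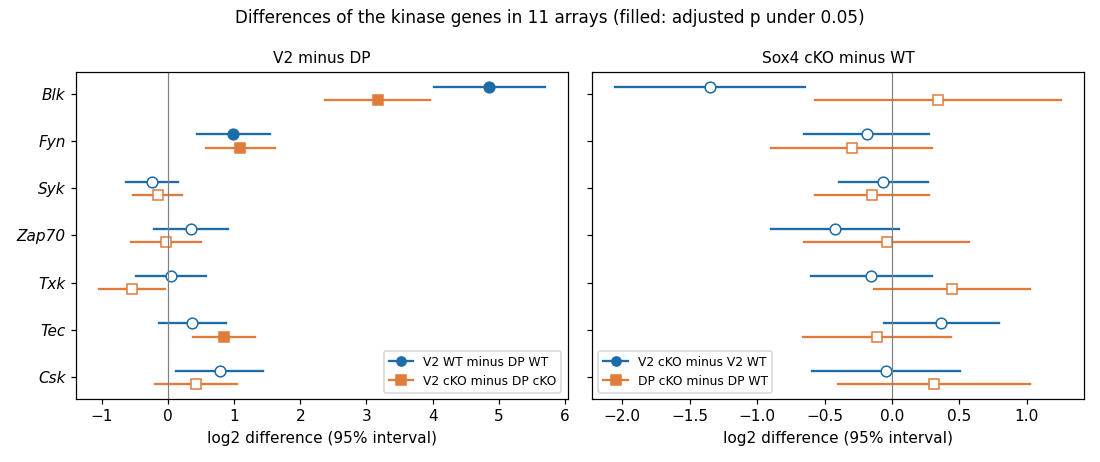
Log2 differences of the 7 kinases in the comparisons between populations and between genotypes, with bars for the 95% intervals, in the 11 arrays, filled where the adjusted p was under 0.05. Blk stands at 4.86 and 3.17 between the populations, while the genotype differences of the other 6 kinases have intervals that include 0.

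None of the 7 kinases passed the threshold between the arrays labelled Sox4 cKO and WT. In V2 cKO against V2 WT 0.0% of all genes passed in the 11 arrays, and 757 genes had an unadjusted p below 0.05, Blk alone among the kinases. Blk was lower by 1.35 (log2 difference -1.35, SE 0.33, unadjusted p = 0.0012, limma adjusted p = 0.348). All 4 V2 cKO arrays were below all 3 V2 WT arrays, which 1.76% of all genes showed, but the nearest arrays read 10.9419 and 10.9445. Within the title sets Blk was lower by 1.58 (log2 difference -1.58) in V2imm and 1.01 (log2 difference -1.01) in immV2, where there was 1 WT array.

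Whether Blk passed depended on the arrays and the fit. It passed with upper quartile centring (log2 difference -1.36, adjusted p = 0.0349) and with the replicate number as a fixed block (-1.55, adjusted p = 0.00172), although whether the numbers pair the arrays is not known. V2 cKO replicate 5 (V2imm) read 9.60 for Sox4, within the 8.64 to 9.68 of the V2 WT arrays compared. The other V2 cKO arrays read 8.07 to 8.23. The Sox4 probe set has an unknown place relative to the deleted part, so these values cannot settle the genotype of an array. Without V2 cKO replicate 5 (V2imm) the Blk difference was -1.68 and passed (adjusted p = 0.0438), and without V2 cKO replicate 4 (V2imm) it was -0.90 (adjusted p = 0.217). With the 13 arrays as labelled it was -0.13 (SE 1.10, adjusted p = 0.997), a fit that holds the array labelled V2 WT replicate 5 (immV2) with its Blk of 6.82. The others differed by -0.42 (Zap70, 95% interval -0.89 to 0.06), 0.37 (Tec, -0.06 to 0.79), -0.19 (Fyn, -0.65 to 0.27), -0.15 (Txk, -0.60 to 0.30), -0.06 (Syk, -0.39 to 0.27) and -0.05 (Csk, -0.60 to 0.51, where the plain means of 10.22 in WT and 10.28 in cKO have the opposite order). Groups overlapped for each of these 6.

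In DP cells the groups had 2 arrays each. There 0.0253% of all genes passed and 0 of 7 kinases did, and 0 of 7 had an unadjusted p below 0.05. The differences were 0.34 for Blk (95% interval -0.57 to 1.25), -0.30 for Fyn (-0.89 to 0.30), 0.44 for Txk (-0.13 to 1.02), 0.31 for Csk (-0.40 to 1.02), -0.15 for Syk (-0.57 to 0.28), -0.11 for Tec (-0.66 to 0.44) and -0.04 for Zap70 (-0.65 to 0.57). The Blk change in V2 minus that in DP was -1.69 (SE 0.53, unadjusted p = 0.0076, adjusted p = 1), and 0.0% of all genes passed in that test, with 372 genes and 1 kinase, Blk, at an unadjusted p below 0.05. With 13 arrays 0.0% of genes passed in each of these 3 comparisons, and no kinase did.

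The kinases varied among V2 arrays of both genotypes more than most genes did, Syk aside. Over the 7 V2 arrays Blk had an SD of 0.941 and a range of 2.73, a larger SD than 99.5% of genes, and the SD of Csk, Zap70, Tec, Txk and Fyn exceeded that of 94.6%, 92.6%, 91.0%, 90.6% and 86.9%. Syk exceeded 28.3%. V2 cKO replicate 4 (V2imm) was the lowest V2 array for Blk, Fyn, Zap70, Txk and Csk, and among the highest for Tec. That array also had the lowest upper quartile of linear intensity of all, 332.7 within 332.7 to 426.2. Its part in these results was not tested beyond the fits without it.

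The gene most like Blk over the 11 arrays was Sox13, which encodes a transcription factor of γδ cells, with r of 0.992 (0.953 within the 7 V2 arrays). Maf, a transcription factor of IL-17 γδ cells, and Elovl5, a fatty acid elongase, followed with 0.988 and 0.984. The points share the split into populations, and are described without a test. The genes most like the others were Sgpl1 for Fyn (0.979), Il27ra for Csk (0.993), Furin for Zap70 (0.959), Pglyrp1 for Tec (0.935), Zscan26 for Txk (0.965) and Poc1b for Syk (0.931).

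Of the other family kinases, 9 of 11 were measured and 0 were called in any comparison by limma, with 1 of 9 at an unadjusted p below 0.05 in each population comparison, 0 between genotypes in V2 and 1 in DP. Over all genes these shares were 14.04% in WT, 14.25% in cKO, 3.83% in V2 and 2.71% in DP. Matk, a relative of Csk, was 0.42 higher in V2 WT (SE 0.16, adjusted p = 0.201), and Ptk6 differed by -0.20 (adjusted p = 0.708). Among 20 receptor chains and substrates, 1 was higher and 2 were lower in V2 WT against DP WT, where 3.20% of all genes were higher and 1.67% lower. Fcer1g, an ITAM adaptor chain, was higher by 0.99 (SE 0.19, adjusted p = 0.00778), while Cd3g, a CD3 chain, fell by 0.87 (log2 difference -0.87, SE 0.19) and Cd28, a costimulatory receptor, fell by 1.18 (log2 difference -1.18, SE 0.29). In cKO, where 3.50% of all genes were higher and 1.94% lower, 3 members rose and 1 fell: Fcer1g (1.35), Ptk2b (1.02), a focal adhesion family kinase, and Cd2 (0.77), while Cd3g fell by 0.76. Cd2, named after its values were seen, was -0.47 in WT (adjusted p = 0.272). With 13 arrays none passed.

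Regulators of kinase activity moved in both directions. Of 19 phosphatases, adaptors and ligases, 6 were higher and 2 lower in V2 WT, and 5 higher and 2 lower in V2 cKO, against the same shares of all genes. Unc119, which binds lipid tails of Src family kinases, was higher by 1.16 in WT and 1.41 in cKO, and Cblb, a ubiquitin ligase that restrains receptor signals, by 1.51 and 1.33. Dusp22, a phosphatase, was higher by 1.01 and 1.09, and Socs1, a cytokine signal inhibitor, fell by 1.44 (log2 difference -1.44) and by 1.69 (log2 difference -1.69). The other called members, named after their values were seen, were Ptpn2 and Ubash3b, phosphatases higher in both, Sla, an adaptor lower in both, and Ptprj, a receptor phosphatase. Ptprj was higher by 1.001 in WT and 0.36 in cKO, the latter not called. The coreceptor genes Cd4, Cd8a and Cd8b1, 3 of 3, were lower in both comparisons (median -5.14 and -4.92), which is no finding, since the sort used these proteins. Between genotypes none of these lists had a called member. At an unadjusted p below 0.05, 4 of the 20 receptor chains and substrates and 3 of the 19 regulators were counted in V2, and 0 of either in DP, against 757 and 535 of all 19752 genes. With 13 arrays no member of these lists was called in the comparisons between populations or genotypes.

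Markers of other cells that the sorts could hold were summed on the linear scale. B cell markers, of which 9 of 10 were measured, came to 922 to 1014 in V2 WT, 980 to 1891 in V2 cKO, 1245 to 1265 in DP WT and 1652 to 1772 in DP cKO. The V2 WT arrays lay below all DP arrays in this sum, and the highest of the 11 sums was on a V2 cKO array. The part of B cells in the kinase values was not tested. By limma 0 of 9 were called, with 1 and 0 at an unadjusted p below 0.05 in the WT and cKO population comparisons. Over all genes the shares below 0.05 were 14.04% and 14.25%. Pax5, a defining B cell gene, stayed between 6.16 and 6.54 in log2 units on all 11 arrays.

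Macrophage and dendritic cell markers (12 of 12 measured) reached their highest sums on V2 arrays, but the ranges of V2 and DP overlapped. They summed to 771 to 2924 in V2 WT and 872 to 5528 in V2 cKO, against 839 to 883 in DP WT and 900 to 935 in DP cKO. In V2 minus DP, 10 of 12 were above 0 in WT and 11 of 12 in cKO. By limma 4 and 6 of the 12 had an unadjusted p below 0.05, against 14.04% and 14.25% of all genes, and 0 were called. Cd74, a class II chaperone of antigen-presenting cells, ran from 5.86 to 10.98 in log2 units over the 11 arrays, while the macrophage genes Csf1r and Adgre1 lay between 5.80 and 6.999 and between 4.99 and 5.76. The part of such cells in the kinase values was not tested. Of 5 natural killer cell markers Eomes alone was called, higher in V2 by 1.002 (WT) and 1.05 (cKO), and Ncr1 lay between 4.37 and 4.86. Of all genes 3.20% and 3.50% were called higher in V2.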

How the data were processed

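Labelled RNA of 13 samples was hybridised to Affymetrix gene arrays. The authors deposited 1 linear intensity per probe set and array. It was made with RMA, run in Power Tools of Affymetrix, per the submitters' processing notes, which name no version here. RMA corrects background, normalises the arrays and summarises probes. Values ran from 6.16 to 23800, and their log2 was used. Of 24922 probe sets, 21425 named 1 gene, 1399 several and 2098 none, and 19752 genes were tested, with the probe set of highest mean used for the 921 genes that had several. The sources used here give no genome build.

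limma 3.58.1 in R 4.3.3 was fitted with 4 group means and a covariate for the V2 title set, with an intensity trend. Two-sided p-values were adjusted over all genes (Benjamini-Hochberg, threshold 0.05), over 11 arrays and over 13 as labelled, and the scripts were tested on simulated data. Residuals of same-numbered arrays correlated at -0.354, -0.223, -0.504 and 0.179, and numbers were not taken as pairs. The negative values are from V2 arrays, whose residuals the fit makes cancel within a title set. They therefore cannot show whether the arrays are paired. Named genes were the 9 kinases, and up to 4 members of each other list with the smallest p in V2 WT against DP WT. Cd2 and 4 regulators were named beside this rule, after their values were seen. The 3 genes most like each kinase were taken by Pearson correlation. The kinases, the lists and the 2 arrays set apart were chosen with earlier results of these data known. Figures used matplotlib 3.10.9 in Python 3.11.15.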

Additional observations from a re-analysis of the deposited data

Results flagged for a closer look

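In groups of 4 arrays as labelled, 14 gene and group combinations were checked for an array far from the others with Dixon's test at its critical value of 0.829, and 4 had one. Chance flags about 1 in 20 groups. Blk read 6.82 in immV2 replicate 5, labelled V2 WT, the lowest of that group by a wide gap, and this array has the DP profile. Zap70 read 10.19 in V2 WT replicate 3 (immV2), above the other 3 arrays of the group. Those were the V2imm arrays, at 9.81 and 9.78, and immV2 replicate 5, with the DP profile, at 9.78. V2 cKO replicate 4 (V2imm) stood below its group in Zap70, at 8.72, and in Csk, at 9.24. No kinase had a genotype difference that differed between V2 and DP past the threshold in limma.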

How the results depend on the processing

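The Blk difference between the populations was kept in 27 of 28 alternatives in each genotype, and lost with the 13 arrays as labelled. The number of kinases called in V2 WT against DP WT, 2 in the main setting, was 0 with 13 arrays, 1 with median centring, 1 without the title set covariate, 1 with a covariate for arrays with Xist above 9 in log2 intensity, 1 with the V2imm set alone, 3 with the immV2 set alone and 3 with array weights, and ran from 1 to 3 when 1 array was left out. In V2 cKO against DP cKO, 3 in the main setting, it was 0 with 13 arrays, 1 without the title set covariate, 1 with the Xist covariate, 1 with only the groups compared, 1 with the V2imm set alone, 2 with quantile or upper quartile scaling, 4 with the immV2 set alone and 4 with array weights, and ran from 1 to 4 when 1 array was left out. Between genotypes in V2, 0 in the main setting, it was 1 (Blk) with upper quartile centring (adjusted p = 0.0349), 3 with array weights, and 1 (Blk, adjusted p = 0.00172) with the replicate number as a fixed block, and ran from 0 to 1 when 1 array was left out. Array weights did not converge and gave V2 WT replicate 3 (immV2) a weight of 36.3, so they are not relied on. The replicate block as a random term, with a correlation of -0.187, changed no call of a kinase, and the fixed block could be fitted for the genotype comparisons only. Over all genes, 962 calls in WT and 1076 in cKO between populations became 11 and 7 with 13 arrays, 594 and 637 without the title set covariate, and 2320 and 2253 with array weights, and ran from 477 to 1575 and from 480 to 1632 when 1 array was left out. Between genotypes 0 calls in V2 became up to 44 when 1 array was left out and 2680 with array weights, and 5 in DP ran from 0 to 29. Between populations, calls over all genes, WT before cKO, were 806 and 971 with median centring and 752 and 683 with the Xist covariate. They were 672 and 720 with the V2imm set alone and 1266 and 577 with only the groups compared. With quantile scaling they were 1089 and 1231, and with upper quartile scaling 1133 and 1170. Between genotypes in V2 they were 29 with upper quartile centring and 34 with the fixed block. The immV2 set alone has 1 V2 WT array. The cause was not tested. Of 994 recomputed values 42 changed sign, none of them of a called difference. With groups of 2 to 4 arrays, differences smaller than the intervals could not be detected.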
